A study of Mus musculus with 4 samples.

Results

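Neutrophils were chosen from 4 droplet libraries of mouse liver mononuclear cells by the unique molecular identifiers (UMIs, each counted once per captured transcript) that a cell barcode carried. A barcode was taken as a neutrophil when it held at least 10 UMIs of S100a8 and S100a9 together, at least 1 UMI of any of the 5 further genes Retnlg, Csf3r, Clec4d, Hdc and Mmp9, fewer than 3 UMIs of Mpo, Elane and Prtn3, no UMI of Cd3d, Cd3e or Cd3g and at most 2 UMIs of Cd79a, Cd79b and Ms4a1. Of 9300 barcodes, 407 (4.38%) met the rule. All mice were C57BL/6 and 8 to 10 weeks old, and each group was 1 library. The Naïve library came from mice without concanavalin A (ConA), a plant lectin that activates T cells and is used to induce hepatitis in mice. Mice of the other 3 libraries, ConA+Veh, ConA+TCDD and ConA+FICZ, all received ConA, with vehicle, the dioxin TCDD or the tryptophan derivative FICZ. By the study's methods, livers of the vehicle and TCDD arms were taken 24 hours after ConA. TCDD and FICZ are both ligands of the aryl hydrocarbon receptor (AhR), a transcription factor that moves into the nucleus when it binds a ligand. The dose and timing of FICZ, and the number of mice behind each library, were not given in the sources used here. Values for FICZ and TCDD are therefore set side by side without a ratio between them. Where libraries are put in order, the order is a description.

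Neutrophils are short-lived granulocytes that leave the bone marrow, follow chemokines and bacterial peptides into injured tissue and release enzymes, antimicrobial proteins and oxidants. Their granules are filled in order during maturation, first the primary granules (myeloperoxidase, elastase), then the specific granules (lactoferrin, cathelicidin), then the gelatinase granules, so granule transcripts mark stages of development. In the liver they are among the early cells recruited after ConA. Mononuclear cells were enriched here with Percoll, which separates cells by density (a gradient by the labels, a single step by the study's methods), and the captured cells need not stand for all liver neutrophils.

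The Naïve library held 2086 barcodes and 5952445 UMIs, the ConA+Veh library 2779 and 19252211, the ConA+TCDD library 1880 and 12077209, and the ConA+FICZ library 2555 and 16017797. Neutrophils contributed 47052, 283467, 91848 and 672725 UMIs to these libraries. A neutrophil carried a median of 2078 UMIs in Naïve, 2410 in ConA+Veh, 1796 in ConA+TCDD and 2148 in ConA+FICZ, with a median of 794, 813, 708 and 780 genes. Between 4 and 15 barcodes were shared by any pair of libraries, and none of these was a neutrophil in both. With 1 library in each group no difference between groups could be tested. All intervals below are 95% intervals for counting error only (exact Poisson for a level, exact Clopper-Pearson for a share, exact binomial for the ratio of 2 sums), and they do not cover variation between mice. Those of gene levels and gene ratios treat each UMI as an independent draw and do not cover variation between cells either. They are therefore too narrow, most of all where few cells carry a gene.

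The label was checked against the genes that define the cells. S100a8 and S100a9, the subunits of calprotectin, made up 17.6% of neutrophil UMIs in Naïve, 18.7% in ConA+Veh, 21.9% in ConA+TCDD and 19.9% in ConA+FICZ, and were the 2 most abundant transcripts in every library once mixed cells (below) were left out. B cells of the same libraries carried a mean of 0.0622 (ConA+Veh) to 0.08 (ConA+FICZ) UMIs of both genes per cell. Retnlg, a resistin-like secreted protein of granulocytes, was at 15850, 19060, 11340 and 16020 CPM ( UMIs of a gene per 1000000 UMIs of the neutrophils of the library, in the order Naïve, ConA+Veh, ConA+TCDD, ConA+FICZ), and Csf3r, the receptor of granulocyte colony-stimulating factor, at 1424, 423, 305 and 531. These genes were used to choose the cells, so their levels are a description. Of 475 barcodes with at least 10 S100a8 and S100a9 UMIs, 17 had none of the further genes, 19 failed on Mpo, Elane and Prtn3, 25 on the T cell genes and 7 on the B cell genes. Just outside the S100 limit, 17 barcodes with at least 5 UMIs met the rest of the rule, and just inside it 14 neutrophils had fewer than 20.

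Some cells that met the rule also carried genes of another cell type. In 8 ConA+Veh cells and 5 ConA+FICZ cells, 13 markers of monocytes and macrophages (among them Csf1r, Ccr2, C1qa, C1qb and C1qc, and without Ly6c2) summed to 17 to 83 and 9 to 86 UMIs, while every other neutrophil held at most 2. S100a8 and S100a9 made up 0.11 to 2.07% of the UMIs of these 8 cells and 0.31 to 0.83% of those of the 5, as the plot of marker UMIs against that share shows. The 8 cells in ConA+Veh held 24.6% of all neutrophil UMIs of that library, and the 5 cells in ConA+FICZ held 5.83%. A further 8 ConA+FICZ cells carried hepatocyte genes and 1 ConA+TCDD cell carried NK cell genes. Together 22 such mixed cells were found. No doublet caller was run, and the mixed cells stayed in every value below unless it is said to be without them. The mixed cells made up 0% of neutrophil UMIs in Naïve, 24.6% in ConA+Veh, 3.81% in ConA+TCDD and 9.23% in ConA+FICZ, the share being highest in ConA+Veh, the shared control of both ligands. Without them 385 neutrophils remained.

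**Figure D1:**
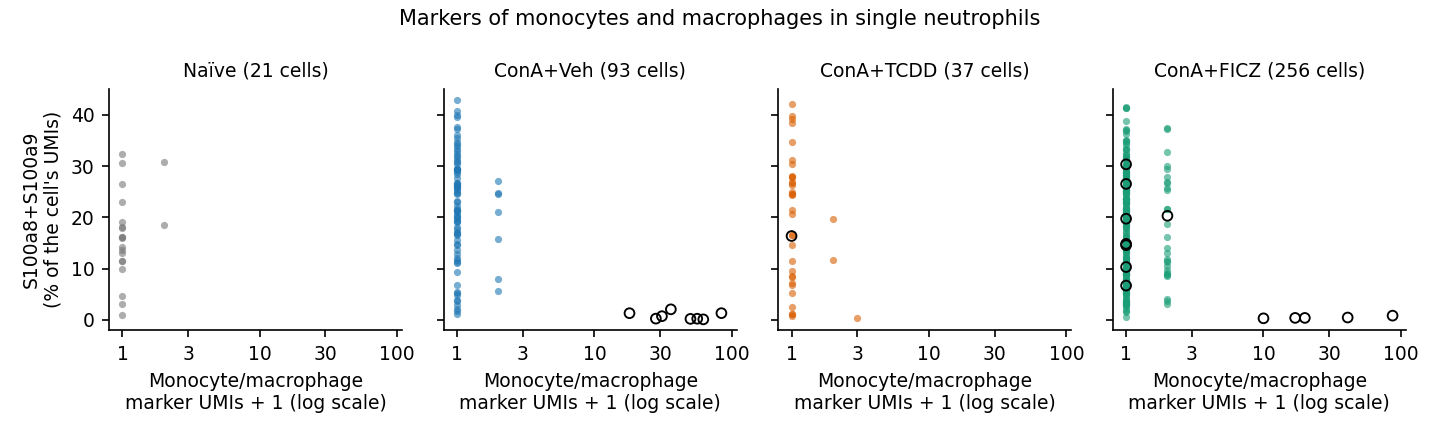
Each point is 1 neutrophil, with the summed UMIs of 13 monocyte and macrophage markers plus 1 on the x axis (log scale) and the percentage of the cell's UMIs from S100a8 and S100a9 on the y axis, in 1 panel per library. Open circles are the 22 mixed cells, of which 8 in ConA+Veh and 5 in ConA+FICZ lie far to the right and near the bottom.

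Without mixed cells, the lists of other cell types had the following values. Ly6c2, which neutrophils also express, was the most abundant gene of the monocyte and macrophage list in each library (40, 330, 115 and 945 UMIs), and the list summed to 893, 1578, 1347 and 1593 CPM. The hepatocyte list summed to 85 CPM in Naïve, 74.9 in ConA+Veh, 0 in ConA+TCDD and 210 in ConA+FICZ (583 with mixed cells), with Alb as its most abundant gene. NK cell genes summed to at most 46.8 CPM (ConA+Veh), and in ConA+TCDD to 34, against 403 with the 1 mixed cell, when 29 of the 37 UMIs were Gzma. Dendritic cell genes had 1 UMI in all 4 libraries together, platelet genes at most 4 in any library, and eosinophil genes at most 9. The basophil and mast cell list had 5 UMIs in ConA+FICZ, all of Kit, and none elsewhere, and the T cell list had at most 5 UMIs in any library. B and plasma cell genes summed to at most 63.8 CPM (Naïve), endothelial genes to at most 85 (Naïve, all Fcgr2b) and erythroid genes to at most 113 (ConA+TCDD).

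Neutrophils made up 1.01% of barcodes in Naïve (21 cells, interval 0.624 to 1.54%), 3.35% in ConA+Veh (93 cells, 2.71 to 4.08%), 1.97% in ConA+TCDD (37 cells, 1.39 to 2.70%) and 10.0% in ConA+FICZ (256 cells, 8.88 to 11.2%). The ConA+FICZ share lay above those of the other libraries and the Naïve share lay lowest, and only the Naïve and ConA+TCDD intervals overlapped. On the log2 scale the share was higher by 1.73 (1.04 to 2.49) in ConA+Veh than in Naïve. It was lower in ConA+TCDD than in ConA+Veh, with a log2 ratio of -0.77 (-1.36 to -0.20), and higher in ConA+FICZ, with a log2 ratio of 1.58 (1.23 to 1.94). Without mixed cells the shares were 1.01, 3.06, 1.92 and 9.51%, and the intervals of ConA+Veh (2.45 to 3.77%) and ConA+TCDD (1.345 to 2.64%) then overlapped as well, with a log2 ratio of -0.68 (-1.28 to -0.10). The rule itself counts these cells, and a share of captured barcodes moves with every other cell type in the library.

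**Figure D2:**
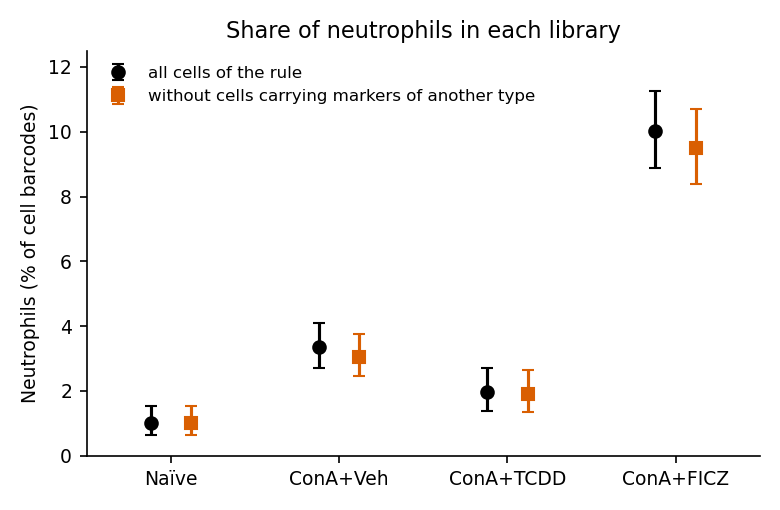
The y axis gives neutrophils as a percentage of the cell barcodes of each library, black over all cells of the rule and orange without the 22 mixed cells. Bars are exact 95% binomial intervals, and the share was 1.01, 3.35, 1.97 and 10.0% over all cells.

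Camp, Ltf and Ngp encode specific granule proteins. Camp is the precursor of cathelicidin, an antimicrobial peptide, Ltf is lactoferrin, which binds iron, and Ngp is neutrophilic granule protein. All 3 are protein-coding genes of mouse chromosome 9 (GRCm38), Camp at chr9:109847379-109849617 on the minus strand, Ltf at chr9:111019271-111042767 and Ngp at chr9:110419747-110423012 on the plus strand (GENCODE). C/EBP factors are known to drive genes of this granule class. Sequence before their start sites is shown because Camp, Ngp and Ltf were all among the 10 genes ranked highest in ConA+TCDD over ConA+Veh over all cells, Ltf not without mixed cells. Matches to the C/EBP-type motif TTGCNNAA, searched on both strands (TTNNGCAA on the other strand) in the 250 bases before the RefSeq start (GRCm38.p6, all 3 genes matched), are in capitals. The GENCODE genes start upstream of the RefSeq starts, by 161 bases for Camp, 61 for Ngp and 21 for Ltf, so the bases printed are those before both starts. They are 229 bases for Ltf at chr9:111019042-111019270 on the plus strand, 189 for Ngp at chr9:110419558-110419746 on the plus strand and 89 for Camp at chr9:109849618-109849706 on the minus strand. Ltf holds 1 match, whose first base is 75 bases before the RefSeq start. Ngp holds 2, at 138 and 11 bases before it, of which the nearer lies inside the GENCODE gene and is not printed, and Camp holds none in its 250 bases. Of 32851 promoters of the same length, 3142 (9.56%) hold at least 1 match, and a match describes the sequence, not a binding site.
Ltf: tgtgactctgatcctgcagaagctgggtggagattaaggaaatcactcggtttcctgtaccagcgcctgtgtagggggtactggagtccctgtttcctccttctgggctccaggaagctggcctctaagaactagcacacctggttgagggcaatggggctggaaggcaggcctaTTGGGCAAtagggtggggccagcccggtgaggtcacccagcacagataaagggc
Ngp: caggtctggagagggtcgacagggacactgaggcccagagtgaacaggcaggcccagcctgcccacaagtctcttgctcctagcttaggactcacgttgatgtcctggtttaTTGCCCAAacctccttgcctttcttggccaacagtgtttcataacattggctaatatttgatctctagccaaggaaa
Camp: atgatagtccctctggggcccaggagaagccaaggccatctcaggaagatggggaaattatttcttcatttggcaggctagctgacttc

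Camp was at 276 CPM in Naïve, 2314 in ConA+Veh, 9875 in ConA+TCDD and 2374 in ConA+FICZ. Ngp was at 3103, 6248, 24440 and 9954 in the same order, and Ltf at 298, 744, 2330 and 1871. For each of the 3 genes the Naïve level was the lowest and the ConA+TCDD level the highest. The ConA+TCDD over ConA+Veh log2 ratio was 2.09 (1.95 to 2.24) for Camp, 1.97 (1.88 to 2.06) for Ngp and 1.65 (1.37 to 1.93) for Ltf. The ConA+Veh over Naïve ratio was 3.07 (2.28 to 3.98), 1.01 (0.77 to 1.26) and 1.32 (0.54 to 2.22). In ConA+FICZ over ConA+Veh it was 1.33 (1.12 to 1.55) for Ltf and 0.67 (0.60 to 0.75) for Ngp, while the interval for Camp held 0 (0.04, -0.10 to 0.17). Without mixed cells Camp had a ratio of 1.73 in ConA+TCDD and -0.24 (-0.37 to -0.11) in ConA+FICZ over ConA+Veh.

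A single cell carried much of the ConA+TCDD signal. It held 12447 UMIs and 2588 genes, 13.6% of all neutrophil UMIs of the library, and 1708 UMIs of Ltf, Camp and Ngp, where the next cell had 353. It contributed 57.5% of the Ltf, 53.5% of the Camp and 49.0% of the Ngp UMIs of ConA+TCDD neutrophils. Its other transcripts included 70.3% of the UMIs of H2afz, a histone variant, all 16 of Stmn1 and all 5 of Mki67, both genes of dividing cells, and all 5 of Fcnb, a granule lectin of immature neutrophils. It had no UMI of Retnlg, Cxcr2, Il1b or Mmp8. Without the cell highest in granule UMIs in each library, ConA+TCDD levels were 5315 CPM for Camp, 14420 for Ngp and 1146 for Ltf, and the ratios over ConA+Veh were 1.78, 1.56 and 1.16. ConA+TCDD then stayed the highest library for Camp and Ngp, but for Ltf ConA+FICZ was highest, at 1736 CPM. For H2afz that ratio was 1.33 with the cell and -0.22 without it, and for Rbm3, a cold-inducible RNA-binding protein, 0.87 and -0.16. These values keep the mixed cells. With mixed cells left out and this cell kept, the ratios were 1.73 for H2afz and 1.72 for Rbm3. No value with both left out is given here. Chil3, a chitinase-like protein, had a ratio of 0.78 with the cell and 0.16 without it, mixed cells being kept in both. With mixed cells left out and this cell kept, Chil3 ranked 8 among the genes higher in ConA+TCDD than in ConA+Veh.

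To compare cells of unequal depth, each neutrophil was thinned at random to 500 UMIs. At least 3 Ltf, Camp and Ngp UMIs were then found in 5 of 21 Naïve cells (23.8%, 8.22 to 47.2%), 23 of 93 ConA+Veh cells (24.7%, 16.4 to 34.8%), 12 of 37 ConA+TCDD cells (32.4%, 18.01 to 49.79%) and 103 of 256 ConA+FICZ cells (40.2%, 34.2 to 46.5%). All 4 intervals overlapped, those of ConA+Veh and ConA+FICZ only between 34.2 and 34.8%. Without thinning the shares were 52.4, 34.4, 40.5 and 56.2%. No B cell of any library reached 3 UMIs. The highest cell held 6 UMIs in Naïve, 107 in ConA+Veh, 79 in ConA+TCDD and 54 in ConA+FICZ. At a limit of 10 UMIs the shares were 0, 7.53, 29.7 and 19.1%, so the order of the libraries depended on the limit. Between 1 and 4 UMIs were found in 7, 19, 6 and 65 cells, which lie near the limit of 3, and the limit divides a range and not 2 cell types.

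**Figure D3:**
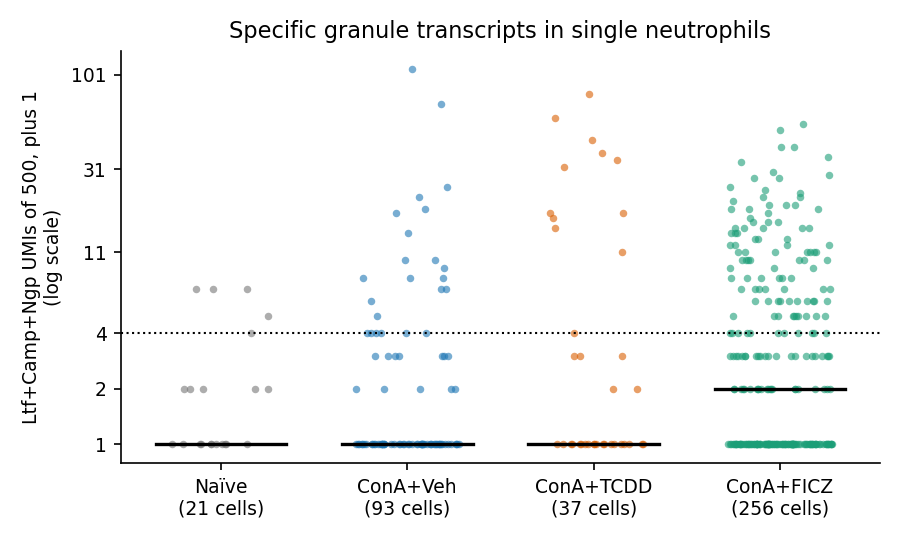
Each point is 1 neutrophil after thinning to 500 UMIs, and the y axis gives its Ltf, Camp and Ngp UMIs plus 1 on a log scale. Black lines are medians (0, 0, 0 and 1 UMI) and the dotted line marks 3 UMIs. The highest cells held 107 UMIs in ConA+Veh and 79 in ConA+TCDD.

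Cells with at least 3 thinned granule UMIs differed from the other neutrophils of their own library in genes that the limit did not use. Mixed cells were left out of this comparison. Chil3, Mmp8 (neutrophil collagenase), Cd177 (a surface glycoprotein of specific granules) and Anxa1 (annexin A1) had higher levels in the granule-positive cells of all 4 libraries. Il1b, the precursor of interleukin 1 beta, was lower in all 4, at 1411 against 4040 CPM in Naïve, 789 against 3686 in ConA+Veh, 139 against 3644 in ConA+TCDD and 395 against 4522 in ConA+FICZ. Cxcl2, a chemokine that attracts neutrophils, was at 16230 against 18560, 5125 against 17250, 1370 against 17340 and 9072 against 27920. Cxcr2, the receptor of Cxcl2, was at 907 against 1077, 377 against 906, 92.9 against 618 and 534 against 898. The chemokine genes Ccl3 and Ccl4 and the ferritin chains Fth1 and Ftl1 were lower in the granule-positive cells of all 4 libraries as well. In Naïve, 5 cells were positive, and the intervals of the ratio of granule-positive to other cells held 0 for Cxcl2 (-0.19, -0.45 to 0.06), Cxcr2 (-0.25, -1.48 to 0.82), Fth1 (-0.19, -0.53 to 0.14), Ftl1 (-0.30, -0.90 to 0.26), Cd177 (0.50, -0.50 to 1.42) and Anxa1 (0.87, -0.01 to 1.69), while Ccl3 had 0 UMIs in positive cells and 8 in the others. In the 3 ConA libraries the intervals of these genes excluded 0. The 11 positive ConA+TCDD cells included the single cell of 12447 UMIs described above. It held 313 of their 524 Chil3 UMIs and none of Il1b or Cxcr2, and no value of this comparison without it is given.

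In granule-negative neutrophils Il1b was thus between 3644 and 4522 CPM in all 4 libraries. The ConA+TCDD over ConA+Veh log2 ratio in these cells was -0.02 (-0.28 to 0.24) for Il1b and -0.55 (-1.20 to 0.05) for Cxcr2. In granule-positive cells the ratios were -2.50 (-4.00 to -1.30) for Il1b and -2.02 (-3.98 to -0.52) for Cxcr2, from 6 and 4 ConA+TCDD UMIs. The positive class did not hold like cells. All 11 positive ConA+TCDD cells had at least 10 thinned granule UMIs, against 7 of 23 in ConA+Veh. No change within that class is therefore read from these ratios.

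ConA+Veh neutrophils were compared with Naïve neutrophils gene by gene. Genes were compared when both libraries of a comparison summed to 30 UMIs or more. Of 1247 such genes, 210 were at least 2-fold higher in ConA+Veh (16.8%) and 187 at least 2-fold lower (15%), 31.8% in either direction. The split depended on the scaling, with 322 higher and 62 lower on median-of-ratios size factors and 339 and 57 on the mean UMI per cell. Without mixed cells 897 genes were left, with 59 higher (6.58%) and 118 lower (13.2%), 19.7% in either direction. Genes were ranked by the interval bound of the log2 ratio nearest 0. The 10 highest over all cells were Ptma, Tmsb10, Crip1, C1qb, S100a10, Camp, Ms4a6c, Lgals1, Hsp90ab1 and 2010107E04Rik. C1qb, a complement component of macrophages, had 137 UMIs in ConA+Veh over all cells and 1 without mixed cells, and none in Naïve in either. Ranked without mixed cells, the list was Camp, Ptma, BC100530, Ngp, Prdx1, Ltf, Npm1, Plac8, Tmsb10 and 2010107E04Rik, and 4 genes were in both lists. Among the genes ranked lowest, 7 of 10 were in both lists.

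Beside the specific granule genes, Ptma, Npm1, Tmsb10 and Plac8 were higher in ConA+Veh than in Naïve with and without mixed cells. Ptma, prothymosin alpha, a chromatin protein of growing cells, had no UMI in Naïve and 217 UMIs in 65 cells of ConA+Veh, which is at least 12.01-fold higher against a floor of 3 UMIs in the Naïve group (at least 7.71-fold without mixed cells). Npm1, the nucleolar protein nucleophosmin, was at 42.5 CPM in Naïve and 360 in ConA+Veh, a log2 ratio of 3.08 (1.19 to 6.15) from 2 Naïve UMIs. Tmsb10, the actin-binding thymosin beta 10, was at 298 and 4710 over all cells and 298 and 969 without mixed cells. Plac8 was at 489 and 2300, or 489 and 1423 without mixed cells. Ribosomal protein genes, which were not ranked, took 2.09% of neutrophil UMIs in Naïve, 6.58% in ConA+Veh, 4.43% in ConA+TCDD and 3.51% in ConA+FICZ, or 2.09, 3.79, 4.35 and 2.66% without mixed cells.

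Of the iron and redox list, Ftl1 and Hmox1 were higher in ConA+Veh than in Naïve. Ftl1, the ferritin light chain, whose processed copies could share its reads, was at 3804 CPM in Naïve, 8509 in ConA+Veh, 10680 in ConA+TCDD and 4550 in ConA+FICZ. Its ConA+Veh over Naïve log2 ratio was 1.16 (0.94 to 1.39), and 0.93 without mixed cells. Hmox1, haem oxygenase 1, which breaks down haem, was at 106, 487, 250 and 210. The ConA+Veh level was the highest of the 4, with a log2 ratio over Naïve of 2.20 (0.94 to 3.84) from 5 Naïve UMIs.

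Slfn4, Fos, Dusp1, Zfp36, Tnf and Gapdh were lower in ConA+Veh than in Naïve. Slfn4, a Schlafen family gene induced by interferon, was at 5143 CPM in Naïve, 1330 in ConA+Veh, 1230 in ConA+TCDD and 3591 in ConA+FICZ. Naïve and ConA+FICZ were high and the other libraries low, with a ConA+Veh over Naïve log2 ratio of -1.95 (-2.19 to -1.71), and -1.59 without mixed cells. Fos, a subunit of the transcription factor AP-1, was at 1721, 459, 490 and 1038. Dusp1, a phosphatase that turns off MAP kinases, was at 1721, 610, 577 and 1186, and Zfp36, which destabilises cytokine mRNAs, at 1148, 536, 544 and 865. For these 3 genes Naïve stood highest and ConA+FICZ second, and the ConA+Veh over Naïve ratios were -1.91 (-2.32 to -1.49), -1.50 (-1.88 to -1.10) and -1.10 (-1.55 to -0.62). Fos was also highest in Naïve among B cells (619, 46.0, 27.2 and 124 CPM) and mononuclear phagocytes (1374, 526, 266 and 608), the same 2 libraries standing highest in those cells. The median share of mitochondrial genes in a neutrophil's UMIs was 0.79% in Naïve, 0.41% in ConA+Veh, 0.33% in ConA+TCDD and 0.74% in ConA+FICZ, highest in these libraries as well, and over all cells of a library the median was 4.47, 2.655, 2.73 and 2.63%. The part of RNA quality in these values was not tested. Tnf, tumour necrosis factor, was at 595, 173, 174 and 291, with 28 Naïve UMIs in 5 cells. Gapdh, a glycolytic enzyme, was at 3762, 1513, 1165 and 1816, with a ConA+Veh over Naïve ratio of -1.31 (-1.57 to -1.05). Gm42418, which overlaps a ribosomal RNA repeat, and Lars2 also ranked among the lower genes, and both were highest in Naïve in B cells too (14050 against 6308 CPM in ConA+Veh for Gm42418, and 1744 against 569 for Lars2).

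Naïve and ConA+FICZ also stood highest for Cxcl2, Mxd1 and Itgam. Cxcl2 was at 18070 CPM in Naïve, 10520 in ConA+Veh, 9429 in ConA+TCDD and 17290 in ConA+FICZ. Mxd1, a repressor that opposes MYC, was at 2274, 1062, 980 and 1666. Itgam, which encodes the integrin subunit CD11b, was at 468, 180, 196 and 415, with log2 ratios of -1.38 (-2.13 to -0.59) in ConA+Veh over Naïve and 1.20 (0.77 to 1.67) in ConA+FICZ over ConA+Veh. For each of these genes Naïve and ConA+FICZ lay above ConA+Veh and ConA+TCDD, as the mitochondrial share did. Trem1, a receptor that amplifies inflammatory signals, was at 1233, 769, 675 and 1216, and Il1r2, a decoy receptor for interleukin 1, at 2827, 1965, 1818 and 2531. Both had Naïve highest and ConA+TCDD lowest, and without mixed cells the ConA+Veh over Naïve intervals of both held 0 (Trem1 -0.31, -0.73 to 0.14, and Il1r2 -0.16, -0.44 to 0.12).

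**Figure D4:**
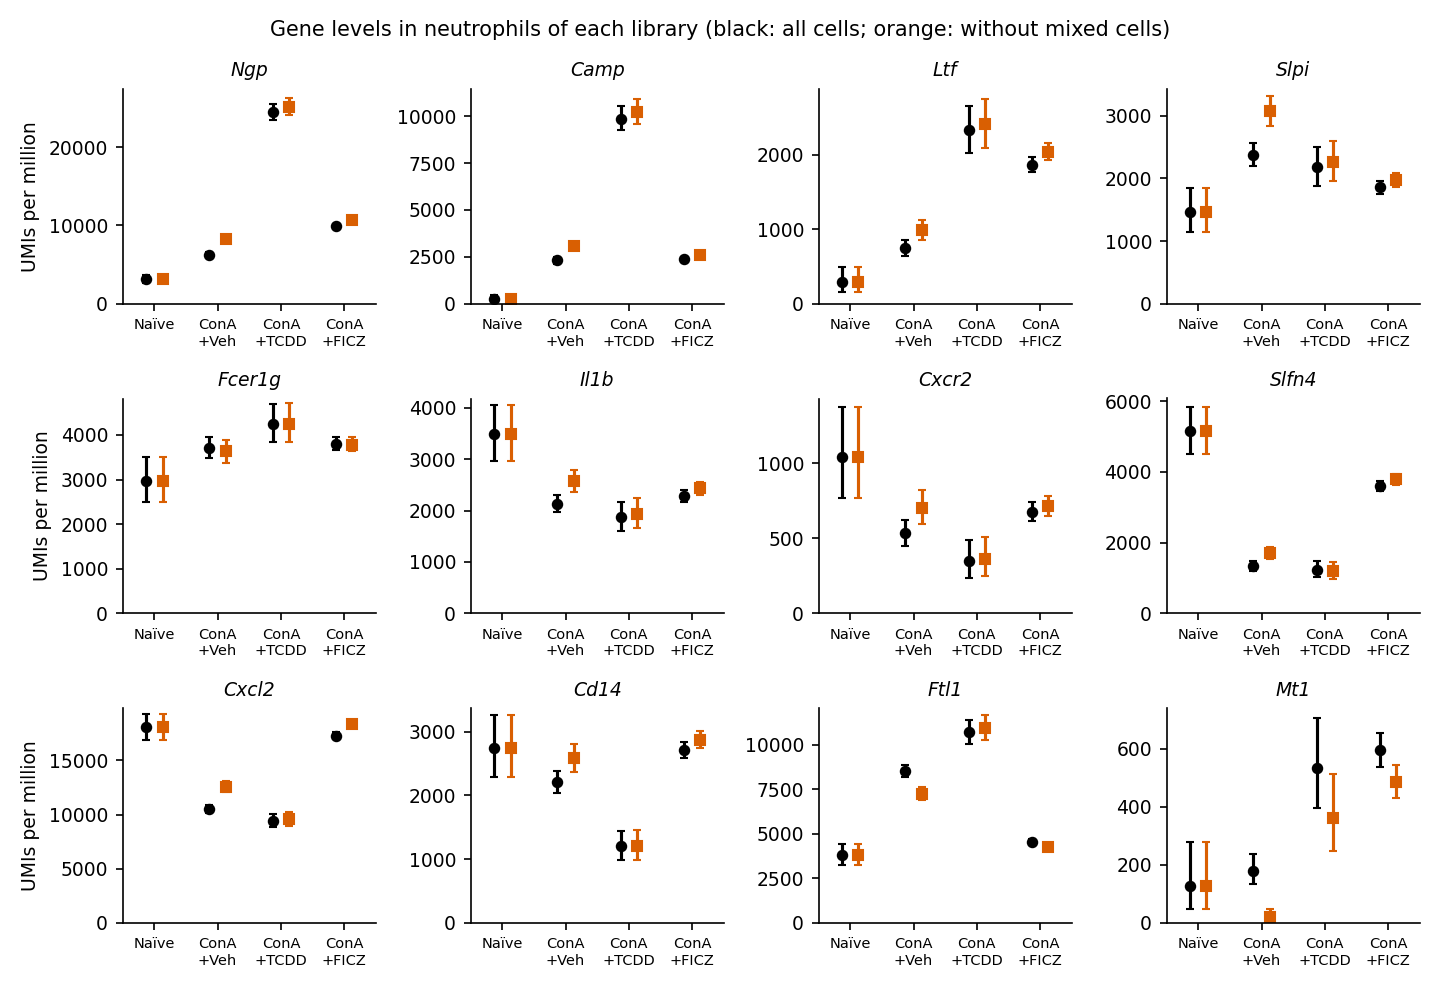
Each panel gives the level of 1 gene in CPM neutrophil UMIs in the 4 libraries, black over all cells and orange without mixed cells, with exact 95% Poisson intervals. Camp and Ngp are highest in ConA+TCDD, Slfn4 and Cxcl2 are higher in Naïve and ConA+FICZ than in the other libraries, and Mt1 in ConA+Veh drops from 180 to 18.7 without mixed cells.

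The study named Slpi, Fcer1g, Il1b and Cxcr2 for neutrophils. Slpi, a secreted inhibitor of leukocyte proteases, was at 1466 CPM in Naïve (1141 to 1856), 2378 in ConA+Veh (2202 to 2564), 2178 in ConA+TCDD (1886 to 2501) and 1860 in ConA+FICZ (1758 to 1966). ConA+Veh was highest and Naïve lowest, and the ConA+TCDD interval overlapped those of both other ConA libraries. The log2 ratios of Slpi were 0.70 (0.34 to 1.08) in ConA+Veh over Naïve, -0.13 (-0.36 to 0.10) in ConA+TCDD over ConA+Veh and -0.35 (-0.49 to -0.22) in ConA+FICZ over ConA+Veh. Without mixed cells they were 1.07, -0.44 (-0.68 to -0.21) and -0.64, the ConA+TCDD interval then lying below 0. Fcer1g, the signalling chain shared by Fc receptors, was at 2975, 3715, 4257 and 3807, and its ConA+TCDD over ConA+Veh ratio of 0.20 turned to -0.10 on the mean UMI per cell. Il1b was at 3486, 2131, 1873 and 2282, with ratios of -0.71 (-0.96 to -0.45), -0.19 (-0.44 to 0.06) and 0.10 (-0.04 to 0.24). Without mixed cells the ConA+TCDD over ConA+Veh interval of Il1b lay below 0 (-0.41, -0.67 to -0.16). Cxcr2 was at 1041 (770 to 1377), 533 (451 to 625), 348 (238 to 492) and 676 (616 to 742), with ratios of -0.97 (-1.44 to -0.47), -0.61 (-1.21 to -0.05) and 0.34 (0.08 to 0.62). Without mixed cells the ConA+FICZ over ConA+Veh interval of Cxcr2 held 0 (0.02, -0.25 to 0.30). Naïve was highest for Il1b and Cxcr2, and ConA+TCDD was lowest. After thinning to 500 UMIs, Il1b was found in 71.4, 54.8, 37.8 and 47.3% of neutrophils, Cxcr2 in 47.6, 36.6, 24.3 and 31.2%, Slpi in 42.9, 57.0, 54.0 and 51.6%, and Fcer1g in 80.95, 77.4, 86.5 and 79.3%. Without thinning the shares were 90.5, 80.6, 48.6 and 62.1% for Il1b, 85.7, 66.7, 45.9 and 73.4% for Cxcr2, 57.1, 88.2, 83.8 and 75.8% for Slpi, and 100, 97.8, 100 and 97.3% for Fcer1g. In B cells, with median depths of 2135, 4254, 3936 and 3792 UMIs, thinned shares of these genes were at most 1.41% (Fcer1g in ConA+Veh). For Cxcr2 and Il1b the thinned share put ConA+FICZ below ConA+Veh and the CPM over all cells put it above. Without mixed cells the CPM of Il1b put ConA+FICZ below ConA+Veh as well. For Fcer1g the thinned share put Naïve above ConA+Veh and ConA+FICZ and the CPM below them. No order of these libraries is therefore read from the shares.

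ConA+TCDD neutrophils were next compared with ConA+Veh neutrophils. Of 1367 genes with enough UMIs, 56 were at least 2-fold higher in ConA+TCDD (4.1%) and 141 at least 2-fold lower (10.3%), 14.4% in either direction (19 and 247 on the mean UMI per cell). Without mixed cells the counts were 53 (5.15%) and 44 (4.28%) of 1029, 9.43% in either direction, and none of the 10 lowest genes over all cells was among the 10 lowest without them. Over all cells the lowest included C1qb, S100a10, C1qc, Aif1, Ms4a4c, Tmsb10, Gstp1, Ms4a6c and Lgals1, several of them monocyte and macrophage genes. The highest were Gzma, Camp, Ngp, AA467197, Ltf, H2afv, Mt1, Ccl5, Gna13 and H2afz, and without mixed cells Mt1, Crip1, Hint1, Camp, Ngp, AA467197, H2afz, Chil3, Jun and Rbm3. Both rankings keep the single cell described above, which held 70.3% of the H2afz and 57.8% of the Rbm3 UMIs of all ConA+TCDD neutrophils. Gzma and Ccl5, genes of cytotoxic lymphocytes, had 29 and 23 UMIs in ConA+TCDD over all cells and 2 each without the mixed cell that carried NK cell genes, and their ratios changed sign from 3.16 to -0.90 and from 1.90 to -1.73. Crip1 changed from -0.56 to 3.32 without mixed cells, with its 33 ConA+TCDD UMIs then in 2 cells.

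Ifitm1, Cd14, Lrg1, Cd44 and Wfdc17 were lower in ConA+TCDD than in ConA+Veh. Ifitm1, an interferon-inducible membrane protein, was at 3294 CPM in Naïve, 3835 in ConA+Veh, 1731 in ConA+TCDD and 3215 in ConA+FICZ. Cd14, a co-receptor for lipopolysaccharide, was at 2742, 2205, 1198 and 2708, and Lrg1, a secreted leucine-rich glycoprotein, at 1105, 1150, 588 and 1693. ConA+TCDD was the lowest library for each of them, with intervals that did not overlap those of the other 3. The ConA+TCDD over ConA+Veh log2 ratio was -1.15 (-1.40 to -0.91) for Ifitm1, -0.88 (-1.19 to -0.59) for Cd14 and -0.97 (-1.41 to -0.55) for Lrg1, and without mixed cells -1.41, -1.09 and -1.27. Cd44, a hyaluronan receptor, was at 701, 543, 250 and 580, with a ratio of -1.12 (-1.82 to -0.48). Wfdc17, a small secreted protein, was at 2890, 3637, 2254 and 3684, with a ratio of -0.69 (-0.91 to -0.47). Ifitm1, Cd14, Lrg1 and Wfdc17 were also lower in ConA+TCDD than in ConA+Veh among granule-negative cells, with Ifitm1 at -0.77 (-1.06 to -0.49).

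Mt1, a metallothionein that binds zinc and copper, was higher in both ligand libraries. It was at 128 CPM in Naïve, 180 in ConA+Veh, 534 in ConA+TCDD and 595 in ConA+FICZ. Without mixed cells it was at 128, 18.7, 362 and 485 (6, 4, 32 and 296 UMIs), and the ConA+TCDD UMIs lay in 6 cells. The log2 ratios over ConA+Veh were 1.57 (0.97 to 2.16) in ConA+TCDD and 1.72 (1.30 to 2.17) in ConA+FICZ over all cells, and 4.27 (2.78 to 6.23) and 4.69 (3.32 to 6.58) without mixed cells. In B cells Mt1 was at 13.7, 18.1, 36.1 and 82.2, and in mononuclear phagocytes at 546, 790, 1276 and 1008, so both ligand libraries lay above ConA+Veh in those cells as well. Gbp2, a GTPase induced by interferon gamma, was at 1594, 868, 1437 and 1602, with ratios of 0.73 (0.41 to 1.04) and 0.88 (0.68 to 1.09) over ConA+Veh. Irf1, an interferon regulatory factor, was at 191, 261, 414 and 380. The Gbp2 and Irf1 values are over all cells. Of the interferon gamma list, 4 of 15 genes had a ConA+TCDD over ConA+Veh interval above 0 and 1 below. Over all 1367 genes 108 lay above and 158 below. Without mixed cells 1 of 14 list genes lay above and 2 below, beside 99 and 98 of 1029 genes.

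ConA+FICZ neutrophils were the most numerous, and 2806 genes had enough UMIs for the comparison with ConA+Veh. At least 2-fold higher in ConA+FICZ were 255 genes (9.09%), and at least 2-fold lower 225 (8.02%), 17.1% in either direction. The pair was 186 and 306 on median-of-ratios size factors, 156 and 354 on the mean UMI per cell and 351 and 201 with each cell weighted equally. Without mixed cells the counts were 244 (10.5%) and 52 (2.23%) of 2331, 12.7% in either direction. The lowest genes over all cells were Aif1, C1qc, Ccl9, Ms4a6c, Ms4a6b, Ms4a6d, Ms4a4c, C1qb, Clec4a3 and S100a10, none of which was among the lowest 10 without mixed cells. Those were Npm1, Prdx1, Ptma, Hist1h1e, Set, Creg1, Hnrnpab, Hspd1, Hmox1 and Ftl1. Npm1 was at 360 CPM in ConA+Veh and 84.7 in ConA+FICZ, with a ratio of -2.09 (-2.58 to -1.60) over all cells and -2.31 without mixed cells. Ptma was at 766 and 218, with a ratio of -1.81 (-2.12 to -1.50). Prdx1, a peroxiredoxin, was at 349 and 103, and Ftl1 had a ratio of -0.90 (-0.98 to -0.83). Hmox1 had a ratio of -1.22 (-1.56 to -0.87). Several genes that were higher in ConA+Veh than in Naïve, among them Ptma, Npm1, Prdx1, Ftl1 and Hmox1, were thus lower in ConA+FICZ than in ConA+Veh, and both comparisons use the same ConA+Veh library.

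Genes of hepatocytes were among those ranked highest in ConA+FICZ. The 10 genes ranked highest were Stfa1, Fgb, Saa2, Saa1, Fga, Cxcl9, Fabp1, Mt2, Apoa1 and Serpina1b. Fgb and Fga, chains of fibrinogen, and Saa1 and Saa2, serum amyloid proteins, are acute phase products of hepatocytes. They were at 211, 150, 294 and 354 CPM in ConA+FICZ neutrophils, and at 110, 63.9, 139 and 164 without mixed cells. In ConA+FICZ B cells, which do not make them, they were at 69.6, 54.5, 100.8 and 95.4, and in ConA+Veh B cells at 16.2, 9.68, 10.2 and 8.71. The part of free hepatocyte RNA in these neutrophil values was not tested. Stfa1, a stefin that inhibits cysteine proteases, had 266 UMIs in 15 ConA+FICZ cells and none in ConA+Veh, at least 37.4-fold higher against a floor of 3 UMIs, but stefin genes are near-identical copies whose reads could be split among them, so the value is uncertain. Cxcl9, a chemokine induced by interferon gamma, had 53 UMIs in 15 ConA+FICZ cells and none in ConA+Veh (at least 7.44-fold higher).

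Slfn4 was higher in ConA+FICZ than in ConA+Veh, with a log2 ratio of 1.43 (1.28 to 1.59), and 1.15 without mixed cells. It was also higher among granule-negative cells (1.09, 0.90 to 1.28). Fos had a ratio of 1.18 (0.91 to 1.46), Dusp1 of 0.96 (0.72 to 1.20), Zfp36 of 0.69 (0.43 to 0.96) and Tnf of 0.75 (0.30 to 1.24). Osm, the cytokine oncostatin M, was at 383, 325, 250 and 645 CPM, highest in ConA+FICZ, with a ratio of 0.99 (0.66 to 1.33). Cxcl2 had a ratio of 0.72 (0.66 to 0.78) and Mmp8 of 0.74 (0.57 to 0.91). Cebpb, a C/EBP factor of emergency granulopoiesis, was lower, at 2642 in ConA+Veh and 1794 in ConA+FICZ, a ratio of -0.56 (-0.69 to -0.42). In ConA+TCDD over ConA+Veh, the intervals of Slfn4, Fos, Dusp1, Zfp36, Tnf, Osm and Mmp8 held 0 over all cells, and that of Slfn4 lay below 0 without mixed cells (-0.51, -0.83 to -0.19).

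The gene lists are described by medians of log2 ratios beside the median of all genes tested (-0.13 in ConA+Veh over Naïve, -0.09 in ConA+TCDD over ConA+Veh and 0.09 in ConA+FICZ over ConA+Veh). Counts are of genes at least 2-fold apart, and the share of all genes tested is given beside them. In ConA+Veh over Naïve, where 15% of all genes were lower and 16.8% higher, 6 of 21 neutrophil markers were lower and none higher, with a median of -0.68 (Csf3r, which the rule used, left out). Of 6 measured members of the gelatinase granule and secretory vesicle list without Mmp9, another gene of the rule, 4 were lower (median -1.08), and of 12 specific granule genes 3 were higher and 1 lower (0.09). In ConA+TCDD over ConA+Veh, where 4.1% of all genes were higher and 10.3% lower, those medians were -0.12, -0.14 and 0.36, with 3 of 12 specific granule genes higher and none lower. In ConA+FICZ over ConA+Veh, where 9.09% were higher and 8.02% lower, they were 0.40, 0.83 and 0.55, with 3 of 21, 2 of 8 and 3 of 13 genes higher and none lower. With mixed cells left out, 2 of 21 neutrophil markers and 2 of 6 gelatinase granule genes were lower in ConA+Veh over Naïve and none higher, beside 13.2% of all genes lower, with medians of -0.31 and -0.80 beside -0.25 over all genes. In ConA+FICZ over ConA+Veh 1 of 21 neutrophil markers, 2 of 7 gelatinase granule genes and 1 of 13 specific granule genes were then higher, beside 10.5% of all genes, with medians of 0.14, 0.54 and 0.37 beside 0.20. In ConA+TCDD over ConA+Veh 4 of 12 specific granule genes were then higher, beside 5.15%, with a median of 0.14 beside -0.01. The neutrophil marker median was then -0.51 there. Of the primary granule list only 1 of 8 genes, Plac8, had 30 UMIs.

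Signalling lists had the following values. The chemotaxis receptor and adhesion list had medians of -0.65, 0.06 and 0.37 in the 3 comparisons, and the granulocyte transcription factor list -0.68, -0.16 and 0.65. The cytokine and chemokine list had medians of -0.38, -0.17 and 0.68, of which the first turned to 0.03 on median-of-ratios size factors. The NF-kB feedback list had -0.68, 0.10 and 0.12, and the immediate early list -0.74, -0.02 and 0.52, with 3 of 18 genes lower and 2 higher in the first (15% and 16.8% of all genes) and 4 of 21 higher and 1 lower in the last (9.09% and 8.02%). Without mixed cells those counts were 3 of 17 lower and 1 higher (13.2% and 6.58%), and 3 of 20 higher and none lower (10.5% and 2.23%). The type I interferon list had medians of -0.31, -0.16 and 0.40 with 3 of 32 measured genes lower and none higher in the first (15% and 16.8% of all genes), 1 of 31 higher and none lower in the second (4.1% and 10.3%) and 2 of 32 higher and none lower in the third (9.09% and 8.02%), and the first median turned to 0.10 on median-of-ratios size factors. Isg15, an interferon-induced ubiquitin-like protein and a member of that list, was at 4739, 6156, 5161 and 6506 CPM, and Ifit3, another, at 1169, 670, 555 and 944, with log2 ratios in ConA+Veh over Naïve of 0.38 and -0.80, the latter turning to 0.01 when each cell was weighted equally and its interval holding 0 without mixed cells (-0.41, -0.85 to 0.05). The interferon gamma list had -0.51, 0.25 and 0.43, of which the first turned to 0.11 when each cell was weighted equally. With mixed cells left out, when the median of all genes was -0.25, -0.01 and 0.20, the chemotaxis list had medians of -0.41, -0.16 and 0.14, the second having turned sign and the third lying below that of all genes. The type I interferon list then had -0.04, -0.31 and 0.22, its first median lying above that of all genes and not below it. The transcription factor list had -0.76, -0.36 and 0.59, the cytokine list -0.26, -0.45 and 0.44, the NF-kB feedback list -0.65, 0.23 and 0.26, the immediate early list -0.68, -0.04 and 0.41 and the interferon gamma list -0.32, 0.09 and 0.39.

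Scaling mattered most in ConA+Veh over Naïve, and the list medians given here include the genes of the rule. Size factors add the same amount to every log2 ratio of a comparison, so a list keeps its place beside the median of all genes. Over genes with UMIs in both libraries, median-of-ratios size factors moved the median log2 ratio from -0.17 to 0.24 there, from -0.08 to -0.07 in ConA+TCDD over ConA+Veh and from 0.09 to -0.06 in ConA+FICZ over ConA+Veh. The neutrophil marker, gelatinase granule, chemotaxis, NF-kB feedback, survival, immediate early and transcription factor medians of ConA+Veh over Naïve stayed below 0 under that scaling, from -0.63 (gelatinase granule) to -0.23 (chemotaxis). In ConA+TCDD over ConA+Veh, medians near 0 changed sign with the scaling, among them those of chemotaxis (-0.13 with each cell weighted equally), cytokines (0.05) and metallothionein and iron (0.12).

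Further lists had the following medians. The oxidative burst list had medians of -0.19, 0.14 and 0.21, the list of Fc receptors, ITAM adaptors and lectins (which holds Clec4d, a gene of the rule) -0.34, -0.24 and 0.12, and the actin and motility list 0.03, -0.19 and 0.02. Under median-of-ratios size factors the first value of the oxidative burst list and of the Fc receptor list turned positive (0.22 and 0.07), and the last of the Fc receptor, actin and NF-kB feedback lists turned negative (-0.03, -0.12 and -0.03). Clec4e, the lectin Mincle, was at 1488, 921, 751 and 1058. The protease inhibitor list had 0.35, -0.04 and 0.52, glycolysis and hypoxia -0.43, -0.35 and 0.23, survival and apoptosis -0.67, -0.02 and 0.15, and metallothionein, iron and redox stress 0.65, -0.08 and -0.36. The S100 alarmin list, which holds S100a8 and S100a9 of the rule, had 0.56, -0.17 and -0.39 over its 4 other measured genes. With mixed cells left out, the first median of the actin list turned to -0.06 and the second of the metallothionein list to 0.11, and the protease inhibitor list had 0.69, -0.43 and 0.25 and the survival list -1.11, -0.12 and 0.27. Of the cell cycle list 2 of 12 genes and of the cold-inducible list 1 of 2 had 30 UMIs in any comparison.

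**Figure D5:**
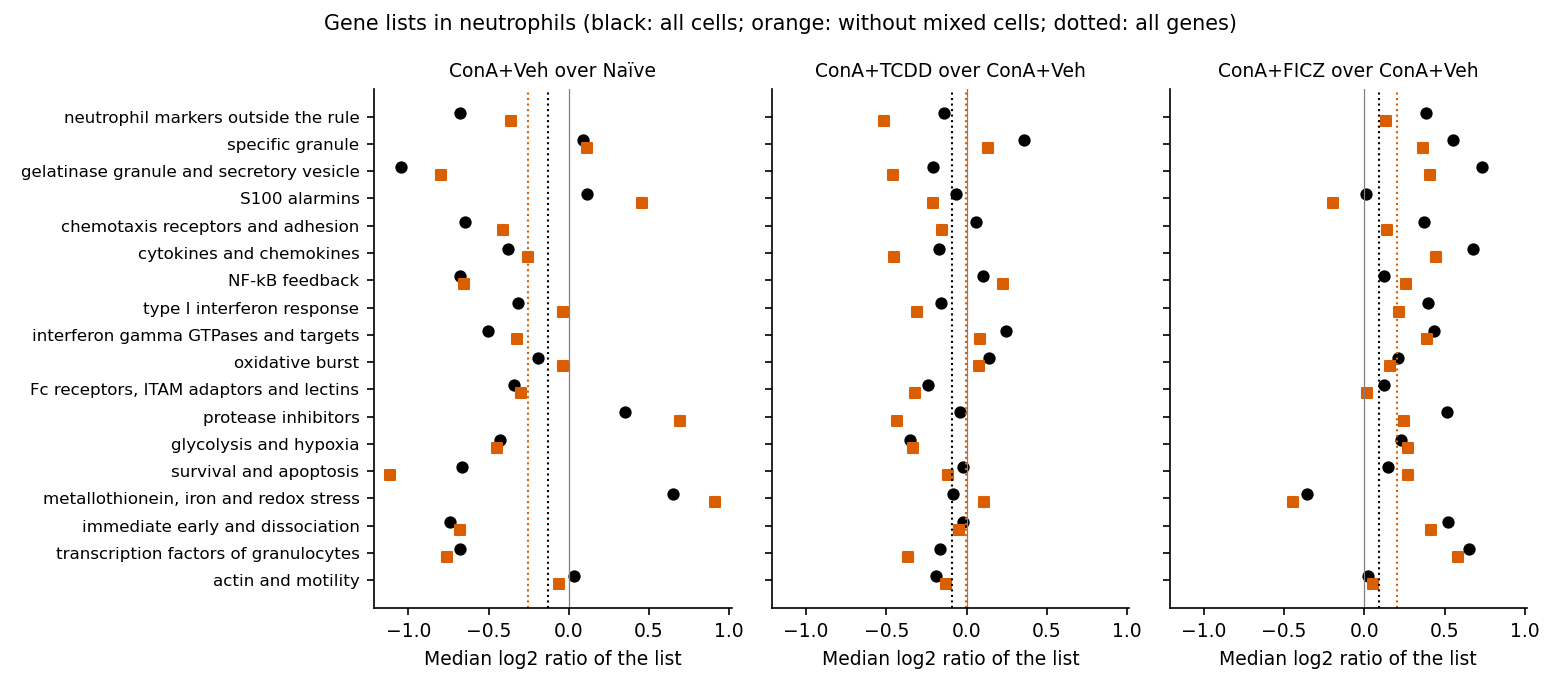
The x axis gives the median log2 ratio of each gene list (genes of the rule included) in the 3 comparisons, black over all cells and orange without mixed cells, and the dotted lines give the median of all genes tested in the same colours. The neutrophil marker, gelatinase granule and transcription factor lists lie left of the dotted lines in ConA+Veh over Naïve and right of the black line in ConA+FICZ over ConA+Veh.

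AhR is the receptor of both ligands. Ahr itself had 0 UMIs in Naïve, 3 in ConA+Veh, 0 in ConA+TCDD and 6 in ConA+FICZ. Cyp1a1, a cytochrome that AhR ligands induce, had none in any library, among 91848 neutrophil UMIs in ConA+TCDD and 672725 in ConA+FICZ, so a low level could go unseen. Of 12 genes of the AhR list, 2 had 30 UMIs. Tiparp, an AhR-induced ribosyltransferase, was at 616, 166, 207 and 235 CPM and ranked among the 10 lowest genes of ConA+Veh over Naïve, with a log2 ratio of -1.89 (-2.59 to -1.17), and -1.83 without mixed cells. It had ratios over ConA+Veh of 0.32 (-0.53 to 1.12) in ConA+TCDD and 0.50 (0.02 to 1.004) in ConA+FICZ, where without mixed cells the interval held 0 (0.48, -0.04 to 1.05). Nfe2l2, a stress-response transcription factor, was at 212, 250, 142 and 166. For the other 10 genes a difference was not detectable at this depth. The 3 Ahr UMIs of ConA+Veh lay in mixed cells.

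Neutrophils were set beside the cells most like them. Ltf, Camp and Ngp had no UMI in 26 granulocyte progenitor-like cells, which met the same S100 limit with at least 3 UMIs of Mpo, Elane and Prtn3, and none in 443 mononuclear phagocytes. Cxcr2 was at most 2.06 CPM in phagocytes, against 348 to 1041 in neutrophils, and Slfn4 was at 75.7, 89.8, 31.02 and 144 there. Fcer1g was at 2347, 3295, 2974 and 3113 in phagocytes. Paired by library, neutrophils exceeded phagocytes in 4 of 4 libraries for each of these 3 genes, by 649 ± 294 CPM (SD, n = 4) for Cxcr2, 2738 ± 1874 for Slfn4 and 756 ± 370.1 for Fcer1g. Each library was a different treatment group, so the SD is a spread over treatments and the 4 pairs are not replicates of 1 condition. A two-sided exact permutation test gave p = 0.125 for each, with and without mixed cells (0.125 after Benjamini-Hochberg adjustment over the 3), which is the smallest p that 4 pairs allow. Ftl1 in phagocytes was at 6369, 11260, 7804 and 9727, with ConA+FICZ near ConA+Veh, whereas in neutrophils ConA+FICZ was at 4550 and ConA+Veh at 8509. Whether this difference between libraries is unlike in the cell types could not be tested with 1 library per group.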

How the data were processed

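Liver mononuclear cells of 4 groups were measured as 1 droplet library each (10x 5′ chemistry). The deposited values are UMI counts per gene and barcode, which the authors made with Cell Ranger (3.0.2 per the file headers) on mm10 without further normalization. Counting of reads shared by near-identical genes was not analysed here. Barcodes were selected by the stated UMI rule, counts were summed per library, and levels and log2 ratios were computed with exact intervals with scipy 1.17.1 and numpy 2.4.6 under Python 3.11.15, tables were handled with pandas 2.3.3 and figures drawn with matplotlib 3.10.9. The intervals of gene ratios were tested on simulated Poisson counts, the model they assume. That simulation held no variation between cells, so it does not show how well the intervals cover in these cells. Library depth was 5952445 to 19252211 UMIs. With 1 library per group no test between groups was made, and neutrophils and phagocytes were compared over the 4 libraries by an exact paired permutation test. Genes named are the 10 highest and 10 lowest per comparison, ranked by the interval bound of the log2 ratio nearest 0 among genes with 30 UMIs (receptor segments, ribosomal protein, mitochondrial and rule genes left out), the genes the study named, and list members with the largest ratios or levels. Stmn1, Fcnb, Mki67 and genes of the granule-positive comparison that fell outside this rule were chosen after their values were seen. The members and lists were chosen with earlier results of these data known. Alternatives covered the cell rule, mixed cells, scaling, thinning and the UMI minimum. Some results are not reported here.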

Additional observations from a re-analysis of the deposited data

How the results depend on the processing

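No paired analysis between groups was possible because each group was 1 library, and for the same reason no replicate could be left out. The neutrophil share kept its direction in every comparison under all 21 alternatives, and list medians moved by less than 1.5-fold in 237 of 238. Of these, 57 used size factors and 57 left S100a8 and S100a9 out of the total. Both settings shift all genes of a comparison alike, here by less than 1.5-fold, so those medians could not move further. Lists with few measured genes were not counted. Among them, the cell cycle median of ConA+Veh over Naïve went from 1.68 to 0.42 without mixed cells. Leaving out mixed cells by the wider marker list, and leaving out the top cell of a gene or of the granule genes, or the genes of the rule from a list, were alternatives chosen after seeing the data. Low counts limit every gene value in Naïve and ConA+TCDD, where neutrophils were fewest, and the cause of each shift below was not tested unless the setting itself removes cells or genes.

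Counts of genes past 2-fold moved most with the UMI minimum. In ConA+Veh over Naïve, 210 higher and 187 lower genes became 742 and 608 at a minimum of 10 UMIs and 38 and 29 at 100. In ConA+TCDD over ConA+Veh, 56 and 141 became 273 and 556, and 12 and 18. In ConA+FICZ over ConA+Veh, 255 and 225 became 664 and 675, and 61 and 39. On the mean UMI per cell, without depth correction, the pairs were 339 and 57, 19 and 247, and 156 and 354, and on median-of-ratios size factors ConA+Veh over Naïve gave 322 and 62. Without mixed cells by the wider list, ConA+Veh over Naïve had 59 and 118, and the lower genes numbered 44 for ConA+TCDD and 52 for ConA+FICZ. With the narrower list fixed earlier, the higher genes of ConA+Veh over Naïve numbered 62, and the lower genes 45 and 48 for the ligands. With at least 20 S100 UMIs, these counts were 117, 80 and 90. With at least 2 of the further genes they were 85, 42 and 75, and 30 genes were higher in ConA+TCDD.

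The granule-positive share of 23.8% in Naïve became 55.6% when thinned to 1000 UMIs, 52.4% without thinning, 47.6% at a limit of 1 UMI and 0% at 10. In ConA+Veh 24.7% became 37.6% at 1 UMI and 7.53% at 10. In ConA+FICZ 40.2% became 52.2% when thinned to 1000, 56.2% without thinning, 57.4% at 1 UMI and 19.1% at 10.

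Of 168 gene ratios, 34 values under an alternative were counted as having the opposite sign, and they are given here. The count leaves out some changes of sign. Among them is Camp in ConA+FICZ over ConA+Veh, which turned negative without mixed cells (above). For ConA+Veh over Naïve, Cd14 was 0.15 with each cell weighted equally, 0.13 on the mean UMI per cell and 0.10 on size factors, Ifit3 was 0.0112 with each cell weighted equally, and Chil3 was -0.0564 and -0.11 without mixed cells by the narrower and wider list. For ConA+TCDD over ConA+Veh, leaving out mixed cells by these lists gave -1.68 and -1.73 for Ccl5, -0.85 and -0.90 for Gzma, 1.90 and 3.32 for Crip1, and 0.90 and 2.86 for Ms4a6c. Without the top cell of the gene, Ccl5 was -1.23, Gzma -0.51 and H2afz -0.15, and without the top granule cell H2afz was -0.22, Rbm3 -0.16 and Cxcl2 0.035. With each cell weighted equally Crip1 was 0.16 and Cxcl2 0.0874, on the mean UMI per cell Fcer1g was -0.10, with at least 20 S100 UMIs Ftl1 was -0.0519, and with at least 2 further genes H2afv was -0.15. For ConA+FICZ over ConA+Veh, the narrower and wider lists gave 0.48 and 0.48 for C1qb and 1.0008 and 0.0698 for Ms4a6c. Ccl9 was 0.48 under the wider list, Ms4a4c 0.28 and Ms4a6b 1.28 under the narrower, C1qb 1.42 with at least 2 further genes, and Chil3 -0.0387 on the mean UMI per cell.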
